A study of Mus musculus with 24 samples.

Results

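H3K27ac, the acetylated form of lysine 27 of histone H3 that marks active promoters and enhancers, was examined at the genes of antigen presentation in liver of both sexes of 2 mouse strains, C57BL/6J (called B6) and CAST/EiJ (called CAST). Both strains are inbred, and they derive from different subspecies. The 10 genes are 2 heavy chains of major histocompatibility complex (MHC) class I (H2-K1 and H2-D1), their partner B2m, the proteasome subunits Psmb8 and Psmb9, the peptide transporter subunits Tap1 and Tap2, and 3 class II chains (H2-Ab1, H2-Aa and H2-Eb1). A region is a stretch covered by peaks of at least 1 of the 4 lists, with overlapping peaks merged, and belongs to a gene when it overlaps the gene's body or the 10 kb on either side (mouse genome mm9, GENCODE genes). The windows of neighbouring genes overlap and join into 5 stretches, 202 kb in all, which held 30 of the 119348 regions found in the series.

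The series holds 20 livers, 5 for each combination of strain and sex, and 4 input controls, 1 per combination. Mice were bought from Jackson Laboratories and were 8 weeks old. The peaks of each combination come as a single list made from its 5 livers together, so that n = 1 per group: no replicate spread can be computed, no test was run, and every difference below is a description of 4 pooled lists. Groups follow the sample titles. In the labels' strain field all females are CAST and all males B6, so for B6 females and CAST males the field and the title disagree.

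MHC class I molecules carry peptides cut from proteins inside the cell to the surface of nearly every nucleated cell, where cytotoxic T cells inspect them. A heavy chain pairs with B2m, and the peptides are cut by the proteasome, in part by its interferon-inducible subunits, and pumped into the endoplasmic reticulum by the Tap1-Tap2 transporter. Class II molecules, made of an alpha and a beta chain, present peptides taken up from outside and are typical of B cells, dendritic cells and macrophages. In the liver, class I genes are active in hepatocytes, whereas class II is best known from Kupffer cells, dendritic cells and sinusoidal endothelium. The class I heavy chains and class II chains are among the most polymorphic genes of the mouse, and their families hold near-identical stretches. Only uniquely mapped reads were kept by the study, and its CAST genome is the mm9 sequence with known CAST single-base changes and small insertions and deletions put in, so gene copies found in CAST alone are not represented in it. Both points bear on every strain comparison here.

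The 4 lists held 79862 (B6 male), 82181 (B6 female), 90228 (CAST male) and 84645 (CAST female) peaks. Their fold enrichments and p-values together fix the number of ChIP fragments at each summit, called the summit pileup here, and the background the peak caller expected there. The lowest background of a list, used by the peak caller wherever its local estimate was no higher, was 18.4, 18.7, 17.8 and 16.8 fragments. The lists were thus of like but not equal depth. The numbering of the peaks has 599 and 579 gaps in the B6 lists and 0 in the CAST lists, but none beside the regions described for the 10 genes. Lists of the same strain by title shared 64.3% (B6) and 63.7% (CAST) of their covered bases, against 54.1% to 60.1% for pairs of different strains, and the start of Xist, the RNA of the inactive X chromosome, was called in both female lists and in neither male list. The B6 males had 39 peaks on the Y chromosome and the CAST males 0, so Y peaks do not mark the CAST male list as male. All 8 hepatocyte markers had their start called in all 4 lists.

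The sequences just upstream of 5 starts are shown because they stand for the class I side, called in every list, and for the class II side, where H2-Aa and H2-Eb1 were not called in every list. Each is the mm9 strand of the gene, 150 bases ending at the base before the most upstream start in the GENCODE vM1 annotation or, for H2-K1 and H2-Eb1, at a start of the RefSeq promoter table found in mm9 by exact match. Capitals mark matches, on either strand, to ATTGG (the Y box, an inverted CCAAT box), GCAAC (a core of the X box), TGACG (a core of the cAMP response element), AANNGAAA (a core of the interferon-stimulated response element) and GGGNNTTCC (a kappa B site). The letters were chosen after the sequences had been seen.
H2-K1 (chr17:34137293-34137442, minus strand): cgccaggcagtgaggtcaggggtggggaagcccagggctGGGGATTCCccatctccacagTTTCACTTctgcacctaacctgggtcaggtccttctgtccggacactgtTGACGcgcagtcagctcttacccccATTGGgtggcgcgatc
B2m (chr2:121973272-121973421, plus strand): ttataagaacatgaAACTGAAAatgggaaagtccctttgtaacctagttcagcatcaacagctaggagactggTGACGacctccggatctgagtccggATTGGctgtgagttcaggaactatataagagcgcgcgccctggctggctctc
H2-Ab1 (chr17:34400004-34400153, plus strand): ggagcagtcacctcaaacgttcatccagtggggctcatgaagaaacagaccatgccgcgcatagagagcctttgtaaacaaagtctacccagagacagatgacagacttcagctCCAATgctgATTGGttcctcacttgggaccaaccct
H2-Aa (chr17:34424773-34424922, minus strand): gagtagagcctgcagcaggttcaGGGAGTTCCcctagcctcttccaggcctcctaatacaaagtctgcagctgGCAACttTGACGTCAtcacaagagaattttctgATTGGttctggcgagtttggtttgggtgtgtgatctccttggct
H2-Eb1 (chr17:34442662-34442811, plus strand): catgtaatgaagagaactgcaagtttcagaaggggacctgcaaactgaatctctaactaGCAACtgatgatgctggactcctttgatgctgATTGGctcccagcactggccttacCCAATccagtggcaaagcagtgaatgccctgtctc

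All 5 sequences hold ATTGG on the strand of the gene. The same stretches of the other 5 genes (H2-D1, Psmb8, Psmb9, Tap1 and Tap2), which are not printed, do not hold it. For H2-D1 that stretch lies before the GENCODE start, and the bases just before its RefSeq start farther downstream were not searched for any of the letters. Over the 22339 protein-coding promoters of the same length, ATTGG stands in 26.1% on either strand. AANNGAAA (12.3% of promoters) is found upstream of H2-K1, B2m and Tap2 and, in the stretches searched, of none of the other 7 genes. GCAAC (19.2% of promoters) is found upstream of H2-Aa, H2-Eb1 and Psmb8. TGACG (14.8%) stands upstream of H2-K1, B2m, H2-Aa, Psmb8 and Tap1, and GGGNNTTCC (3.41%) upstream of H2-K1 and H2-Aa. These are letters in a window and not bound sites, and since the letters were picked with the sequences in view, the shares are background and no comparison. All 50-base words within the 5 sequences occur once in mm9.

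Strains were compared first over all windows. The joined windows held 21 peaks for B6 males, 21 for B6 females, 28 for CAST males and 25 for CAST females. They covered 11.6%, 11.4%, 12.8% and 12% of the 202 kb, so the 2 CAST lists lay above the 2 B6 lists in both number and covered length. The covered length was 1.11 times as large in CAST as in B6 for males and 1.06 times for females, where the median protein-coding gene had ratios of 1.01 and 0.968. Of the 30 regions, 16 (53.3%) were called in all 4 lists, against 40.4% of all regions of the series. Regions called in a single list made up 6 of the 30, against 32.4% in the series. CAST-only regions, called in both CAST lists and in neither B6 list, numbered 5 (16.7%), against 6.15% of all regions, and 1 region (3.33%) was B6-only, against 4.17%. The CAST-only regions were mostly weak, with fold enrichments from 1.61 to 4.26. Their number fell to 2 of 29 when the windows were read in 1 kb bins covered by at least 50%, where 5.84% of all such bins were CAST-only, a share near that of the windows.

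The windows differed in how much of them was marked. Tap1 (25.9% to 26.6%) and B2m had the most covered windows, where the median protein-coding gene had 4.65% to 5.1%. Those of Psmb8 (18.8% to 20.2%), Psmb9 (16.8% to 17.9%), Tap2 (14.4% to 19.9%) and H2-D1 (11.8% to 13.9%) lay between. The H2-K1 window was covered to 4.17% (B6 male), 4.42% (B6 female), 7.66% (CAST male) and 6.53% (CAST female), which put CAST at 1.84 times B6 in males and 1.48 times in females. The class II windows were covered to 6.36% to 7.54% (H2-Ab1), 6.5% to 8.48% (H2-Aa) and 4.92% to 8.14% (H2-Eb1). Overlapping windows share regions, so these values do not belong to 1 gene alone. The H2-Aa window includes the H2-Ab1 start region, which made up 1810 of its 2730 covered bp in B6 males. Likewise, the Tap1 window includes the start regions of Psmb8 and Tap2.

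**Figure D1:**
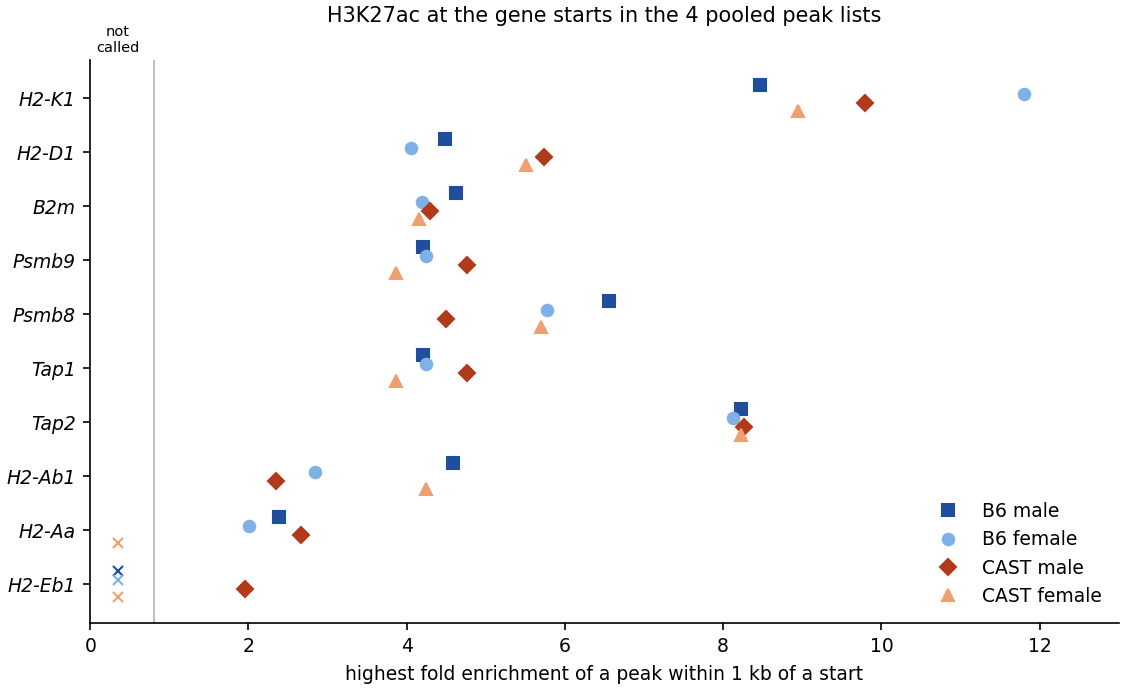
Highest fold enrichment (ChIP over background) of a peak within 1 kb of an annotated start of each gene, 1 point per pooled list of 5 livers; crosses at the left mark lists without such a peak. H2-K1 (8.47 to 11.8) and Tap2 (8.12 to 8.26) stand highest, and the class II genes H2-Aa and H2-Eb1 are low or not called.

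Of the 10 genes, 8 had a peak within 1 kb of a start in all 4 lists, compared with 54.5% of the 22342 protein-coding genes. The exceptions were the class II genes H2-Aa and H2-Eb1. The 8 starts lie in 7 regions, since Psmb9 and Tap1 are transcribed away from each other out of the same region. By fold enrichment, none of the 7 differed between strains by 1.5 times or more in the same direction in both sexes. Of all regions called in every list, 0.754% did.

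Among the class I heavy chains, H2-K1 (chr17:34132962-34137278, minus strand) had the highest start of the 10 genes by fold enrichment in every list. By summit pileup, Tap2 (294 to 370) and B2m (357 to 497) stood above it in every list. The region at chr17:34136123-34137828, which spans the start, 5′ exons and the upstream sequence shown above, had fold enrichments of 8.47 (B6 male), 11.8 (B6 female), 9.79 (CAST male) and 8.94 (CAST female). The 2 CAST values lay between the 2 B6 values. Summit pileups were 163 (B6 male), 232 (B6 female) and 191 (CAST male) fragments, and the exact 95% Poisson interval of the CAST female pileup was 138 to 189. Such intervals cover counting error only. Relative to the lowest background of each list, the CAST pileup was 1.21 times that of B6 in males (95% counting interval 0.977 to 1.5). In females it was 0.776 times (0.631 to 0.952). The male interval spans the ratio of the median region, 1.1, and the female interval lies below its 0.995. The background at H2-K1 was 18.4, 18.7, 18.6 and 17.2 fragments, at or within 5% of the lowest value of the list. Of the 8 other class I loci called in all lists, 4 (H2-Q4, H2-T10, H2-T22 and H2-T23) were at the lowest value in all 4 lists. Around the starts of the last 3 of these, 53.9% to 75.2% of 50-base words are unique. The other 4 (H2-Q10, H2-T24, H2-M3 and H2-K2) lay above it. Of the called protein-coding starts, 11.3%, 10.7%, 10.9% and 10.7% had a background within 5% of the lowest, and the median background at called starts was 37.5 to 44.4 fragments.

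The called stretch at H2-K1 was longer in CAST, 1590 bp in males and 1588 bp in females against 1015 bp and 1076 bp in B6. The difference lay on the side of the gene body, where the peaks reached 1169 and 1114 bp past the start in CAST but 561 and 539 bp in B6. The upstream reach of 420 to 536 bp overlapped between strains. The 553 bp called in both CAST lists alone (chr17:34136178-34136730) lie 59.3% in coding exons, and 82.3% of their 50-base words, the read length of the study, occur once in mm9. In the 960 bp called in all 4 lists, 98.6% do. The part of mapping in the CAST extension was not tested. The only other region of the H2-K1 window, at chr17:34128625-34128897 and 8305 bp beyond the start, was called in the CAST male list alone, with a fold enrichment of 2.88.

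H2-D1 (chr17:35399675-35404444, plus strand), the other class I heavy chain of the 10 genes, had the largest strain difference of the 16 regions by pileup. Its start region (chr17:35398850-35400577) had summit pileups of 185 (B6 male), 142 (B6 female), 371 (CAST male) and 307 (CAST female) fragments, so both CAST lists lay above both B6 lists. On the same scale the CAST pileup was 2.07 times that of B6 in males (95% counting interval 1.73 to 2.48) and 2.40 times in females (1.96 to 2.95), where the median region had 1.10 and 0.995. With the median of all regions set to 1, H2-D1 was the only 1 of the 16 regions called in all lists that passed 1.5 times in both sexes by pileup, against 4.16% of such regions in the series. The background rose with it, from 40.4 and 34.2 fragments in B6 to 63.8 and 54.9 in CAST, so the fold enrichments were closer: 4.49, 4.06, 5.74 and 5.51. They were higher in CAST by 0.26 (males) and 0.43 (females) on the log2 scale once the median of all regions was set to 0. Of the 50-base words of the start region, 96.2% occur once in mm9, and of those around the annotated starts 87.1% do.

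The region upstream of H2-D1 shared the higher background. At chr17:35394747-35396099, 3.58 kb upstream, the background was 49.7 and 44.2 fragments in B6 against 76.3 and 64.6 in CAST. These were the 2 of the 16 regions whose background differed between strains by 1.5 times in both sexes, against 1.65% of the series. The fold enrichments there, 5.27, 5.57, 5.94 and 4.73, overlapped between strains while the pileups, 266, 251, 458 and 309, did not, and 84.8% of its 50-base words are unique. Between these regions, a CAST-only region at chr17:35396283-35396594 had weak fold enrichments of 1.61 and 1.78 on backgrounds of 81.6 and 68.3. At the called regions on the far side of the gene the background was the lowest of its list in both strains. At the 2 regions called in all lists on the 5′ side of H2-D1, both the pileup and the background were higher in CAST. The lists hold no input counts, so whether input fragments were more numerous there was not tested. With reads of the strains mapped to different genomes, acetylation, the number of gene copies and the mapping of reads cannot be told apart here.

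The summits at H2-D1 also shifted with strain. They lay 220 and 219 bp past the RefSeq start in the B6 lists and 122 bp past it in both CAST lists. In the gene body direction the peaks reached 538 and 527 bp in B6 and 390 and 377 bp in CAST, the reverse of H2-K1. On the far side of the gene, the region at chr17:35411446-35412090 was called in all lists at 4.03, 3.05, 3.09 and 3.37, and a CAST-only region 3.28 kb from the nearest H2-D1 start (chr17:35406248-35406616) had 2.34 and 2.13.

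**Figure D2:**
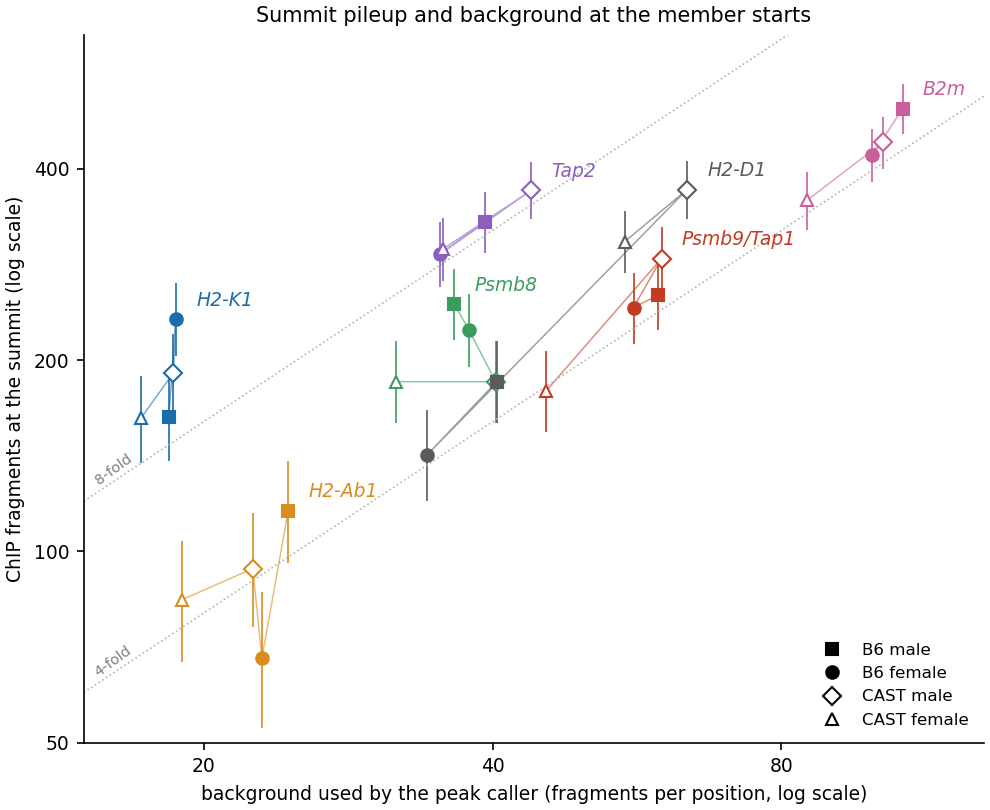
ChIP fragments at the summit (vertical, log scale, with exact 95% Poisson intervals) against the background used by the peak caller (horizontal, log scale) for the highest peak of each start region called in all lists; filled marks are B6, open marks CAST, and dotted lines show ratios of 4 and 8. H2-K1 sits at the lowest background of the list in both B6 lists. In the CAST lists it sits slightly above it (18.6 against 17.8 in males, 17.2 against 16.8 in females). H2-D1 moves farthest up and to the right from B6 to CAST in both sexes.

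B2m (chr2:121973422-121978819, plus strand), the invariant partner of the class I heavy chains, lies outside the MHC. Its start region (chr2:121972311-121975119) had the highest pileup of the start regions in every list, at 497 (B6 male), 420 (B6 female), 440 (CAST male) and 357 (CAST female) fragments. On a background of 107, 99.4, 102 and 85.1 this gave fold enrichments of 4.62, 4.19, 4.29 and 4.16. The strains overlapped, and both male lists lay above both female lists. Peaks covered 25.9%, 23.8%, 24% and 22.2% of the B2m window, more than in at least 98.5% of protein-coding genes in each list.

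The distal B2m regions differed little in fold enrichment. The region 5.68 kb upstream (chr2:121966463-121967746, in an intron of Patl2, whose annotation overlaps B2m) had 4.41, 4.48, 4.98 and 4.59, and those at chr2:121981309-121982446 and chr2:121983308-121984484 had 2.15 to 2.52 and 2.28 to 2.44. By pileup (253, 222, 327 and 247 fragments) the upstream region was 1.33 times as high in CAST males (95% counting interval 1.13 to 1.58) and 1.24 times in CAST females (from just above 1 to 1.49). A CAST-only region 9.10 kb upstream (chr2:121963523-121964323) had 2.1 and 2.48. The single B6-only region of the windows, at chr2:121986184-121986509, covers a start of the neighbouring gene Trim69 and had 1.9 and 2.0. A strip 1.35 kb upstream of B2m (chr2:121971687-121972069) was called in both male lists and neither female list, with fold enrichments of 1.52 and 1.31.

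Psmb9 (chr17:34318932-34324709, minus strand), an inducible proteasome subunit, and Tap1 (chr17:34324498-34334170, plus strand), a subunit of the peptide transporter, share the region at chr17:34323403-34325537. It had fold enrichments of 4.20 (B6 male), 4.25 (B6 female), 4.76 (CAST male) and 3.87 (CAST female), with the 2 CAST values at either end. The peak spans 2065 to 2135 bp, and in every list reaches 977 bp or more to each side of the Tap1 start. The summit lay on the Tap1 side in both male lists (432 and 480 bp past its start) and on the Psmb9 side in both female lists (370 and 398 bp before it). With 1 list per sex and strain, this pattern has no replicate check. Beyond the end of Psmb9, a region at chr17:34316543-34318733 was called in all lists at 3.83, 3.32, 4.52 and 3.81.

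Psmb8 (chr17:34334666-34338399, plus strand), another inducible proteasome subunit, had the lowest ratio of CAST to B6 fold enrichment among the 16 regions in males, 0.686, but a ratio of 0.988 in females. Its start region (chr17:34334350-34336197) had 6.56, 5.77, 4.5 and 5.7. By fold enrichment the CAST male list was the lowest and the B6 male list the highest. The pileups of 245, 223, 185 and 185 fragments gave a CAST to B6 ratio of 0.780 in males (95% counting interval 0.641 to 0.948) and 0.922 in females (0.754 to 1.13).

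Tap2 (chr17:34340472-34353266, plus strand), the partner of Tap1 in the transporter, had the most even start of the 10 genes. The region at chr17:34340741-34342933, shared with the overlapping gene model Gm20496, had fold enrichments of 8.22, 8.12, 8.26 and 8.22. The pileups were 330, 294, 370 and 299 fragments. The called stretch begins 269 to 595 bp inside the annotated start and the summit lies 1114 to 1174 bp past it in the 4 lists.

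By the mean of both sexes, the largest strain difference of fold enrichment among the 16 regions lay downstream of Tap2, although in males that of the Psmb8 start was larger in size (-0.64 on the centred log2 scale). The region at chr17:34354335-34356216, between genes and 2.93 kb from the nearest start, that of the gene model Gm15821, had fold enrichments of 3.62 (B6 male), 3.20 (B6 female), 5.75 (CAST male) and 7.21 (CAST female). Both CAST lists lay above both B6 lists. The pileups were 69, 62, 107 and 132 fragments, a CAST to B6 ratio of 1.6 in males (95% counting interval 1.17 to 2.2) and 2.37 in females (1.74 to 3.25). The background was the lowest of the list, or within 5% of it, in all 4 lists (18.4, 18.7, 17.8 and 17.4), and all 50-base words of the region occur once in mm9. On the log2 scale with the median of all regions at 0, the fold enrichment was higher in CAST by 0.57 in males and 1.16 in females, the mean of which lay above 99.8% of the 48266 regions called in all lists. The male value fell just short of 1.5 times. By this measure 0 of the 16 regions passed 1.5 times in both sexes by fold enrichment, against 0.754% of regions in the series. The region downstream of Tap2 passed without the scaling to the median, and with fold enrichments averaged over width.

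Next to it, at chr17:34361138-34361823, a CAST-only region had fold enrichments of 3.35 and 4.26, the highest of the 5 CAST-only regions, again on the lowest background of each list and on fully unique sequence. The covered share of the Tap2 window was 14.4% and 15.0% in B6 and 18.2% and 19.9% in CAST. A weaker CAST-only region lay in an intron of Tap1 (chr17:34331948-34332290, 1.83 and 2.1).

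**Figure D3:**
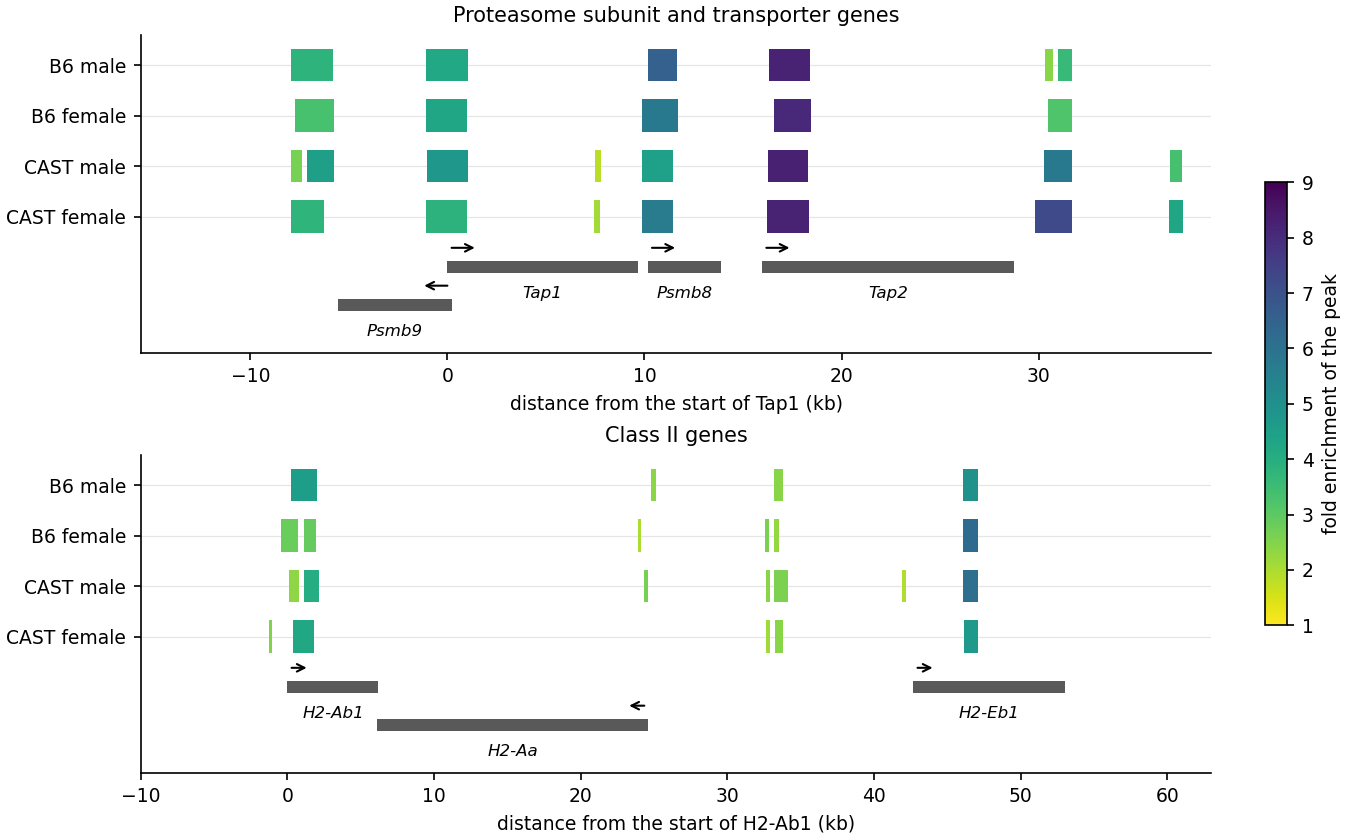
Peaks of each pooled list over the proteasome and transporter genes (upper panel) and the class II genes (lower panel), placed by distance in kb from the start of Tap1 or H2-Ab1 and coloured by fold enrichment; grey bars are gene bodies and arrows give the direction of transcription. The regions about 30 and 37 kb to the right of Tap1 are stronger or present only in CAST, and the peaks near the start of H2-Aa (about 24 to 25 kb) do not overlap between lists.

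**Figure D4:**
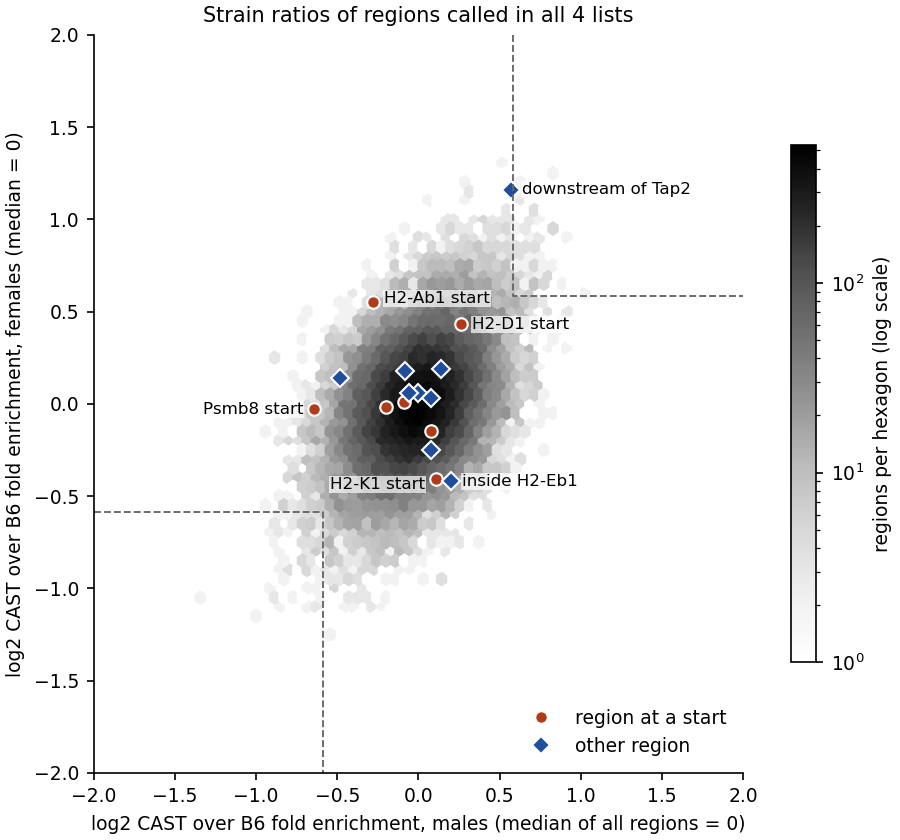
Log2 ratio of CAST to B6 fold enrichment in males (horizontal) and females (vertical) for the 48266 regions called in all lists (grey, number per hexagon on a log scale), with the median at 0, and the 16 regions of the 10 genes in colour. The dashed corners mark 1.5 times in both sexes; the region downstream of Tap2 (0.57 and 1.16) lies at the edge of the upper corner, and no other coloured point is near either.

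Across the 16 regions, the median of the mean log2 ratios of the 2 sexes was -0.02 by fold enrichment and 0.05 by pileup. The median of all regions is 0 by construction in each sex.

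Among the class II chains, H2-Ab1 (chr17:34400154-34406363, plus strand), a beta chain, had its start region at chr17:34399728-34402323, with highest fold enrichments of 4.59 (B6 male), 2.88 (B6 female), 4.04 (CAST male) and 4.24 (CAST female). Within 1 kb of the start itself the values were 4.59, 2.84, 2.35 and 4.24, because the B6 female and CAST male lists split the region into separate peaks. Pileups of 116, 68, 94 and 84 fragments made this the weakest of the start regions called in all lists. The strain ratio ran in opposite directions in the sexes, 0.837 in males (95% counting interval 0.631 to 1.11) and 1.37 in females (0.985 to 1.92), and both intervals include 1. A peak 1047 bp upstream (chr17:34398872-34399107) was called in the CAST female list alone at 2.50.

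H2-Aa (chr17:34406276-34424772, minus strand), the alpha chain that pairs with H2-Ab1, had 3 small peaks near its start that did not overlap each other. The B6 male peak (2.38, 45 fragments) ended 192 bp upstream of the start. The CAST male peak (2.66, 49 fragments) lay 58 to 312 bp inside the gene, and the B6 female peak (2.01, 41 fragments) 487 to 716 bp inside it. No peak was called there in the CAST female list. The lowest pileup of any peak named in these windows was 37 fragments. The counting intervals of the 3 pileups overlap (B6 female 29.4 to 55.6, CAST male 36.3 to 64.8). All 50-base words of the 3 stretches occur once in mm9. Merging peaks up to 500 bp apart left no sex-only region in B6. In the space between H2-Aa and H2-Eb1, a region at chr17:34433305-34434262 was called in all lists at 2.31 to 2.58, and its neighbour at chr17:34432724-34433081 in all but the B6 male list at 2.13 to 2.60.

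H2-Eb1 (chr17:34442828-34453144, plus strand), another beta chain, had no peak at its start except in the CAST male list, where a peak of 1.96 ended 481 bp upstream (chr17:34442046-34442331). Its main signal lay inside the gene, 3.29 kb past the nearest start and over a coding exon (chr17:34446181-34447224), with fold enrichments of 5.0 (B6 male), 6.24 (B6 female), 6.13 (CAST male) and 4.70 (CAST female). B6 was higher in females and CAST in males. By pileup (117, 154, 168 and 97 fragments) the CAST to B6 ratio was 1.48 in males (95% counting interval 1.16 to 1.89) and 0.7 in females (0.537 to 0.908). This was the only 1 of the 16 regions with intervals on opposite sides of the medians in the sexes, a pattern found in 0.417% of the regions called in all lists.

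In whole liver, a lower value can mean fewer cells that carry the mark or less of the mark per cell, and the lists cannot separate these. Markers of other liver cells were read at their starts, where 54.5% of protein-coding genes were called in all lists. Of 8 Kupffer cell and macrophage markers, 0 were called in all lists and 1 (Clec4f, 2.13) in the B6 female list alone. Of the B cell markers reported here, Cd79b was called in all lists (2.08 to 2.67), Cd22 in both male lists, and Cd79a, Ms4a1 and Pax5 in none. Of 6 dendritic cell markers 2 were called in all lists (Zbtb46 and Batf3), and Itgax, Flt3, Xcr1 and Ccr7 in none. Of 6 sinusoidal endothelial markers 3 (Stab2, Kdr and Pecam1) were called in all lists, at 2.03 to 3.05, Stab1 and Clec4g in all but the B6 female list, and Lyve1 in none. The part of these cells in the class II values was not tested.

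Sex was compared within each strain. Of the 21 regions called in B6, 4 (19%) were called in a single sex, against 34.9% of B6 regions in the series. Of the 27 called in CAST, 5 were, against 35.5%. In B6 these were 2 in the male list (17.4% of B6 regions in the series) and 2 in the female list (17.5%). In CAST 4 were in the male list (21.5% of CAST regions in the series) and 1 in the female list (14.1%). Their fold enrichments ran from 1.31 to 2.88, where the median peak of a list had 2.5 to 2.57.

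**Figure D5:**
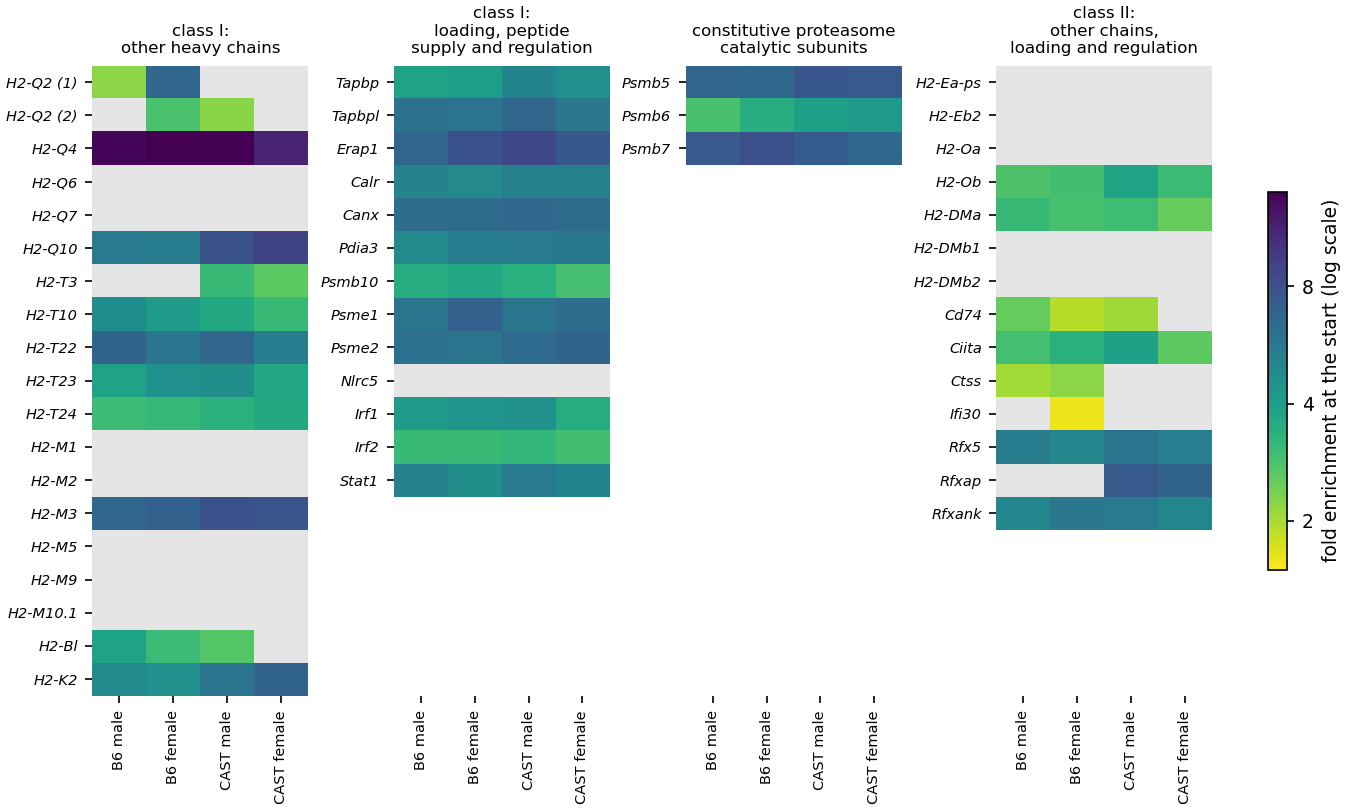
Fold enrichment (log colour scale) at the start of other genes of antigen presentation in each of the 4 pooled lists; grey cells mark starts without a peak. Class I loading and supply genes are called in all lists except Nlrc5 (12 of 13), and 5 of the 14 class II loci are, where 54.5% of protein-coding genes are.

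The other genes of the pathway were read at their starts. Of 13 genes of class I loading, peptide supply and regulation, 12 were called in all 4 lists, where 54.5% of protein-coding genes were. Among them were the interferon regulatory factor Irf2 (2.95 to 3.19) and Erap1, a peptide-trimming enzyme (6.76 to 8.62). The exception was Nlrc5, the class I transactivator, which the annotation used here holds only as a non-coding gene, with no peak. All 3 constitutive proteasome subunits that Psmb8, Psmb9 and Psmb10 replace were called in every list, Psmb5 at 6.56 to 7.62, Psmb6 at 2.88 to 4.17 and Psmb7 at 6.62 to 8.15. None of the 28 starts of these lists called in all 4 lists passed 1.5 times between strains in both sexes, against 0.46% of such starts in the series.

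Of 19 loci of other class I heavy chains, 8 were called in all lists, 4 in some and 7 in none, against the 54.5% of protein-coding genes called in all lists. H2-Q4 had the highest fold enrichment of any gene examined, 13.5, 14, 14.1 and 11.2, again on the lowest background of each list. H2-Q10, the secreted class I chain made by liver, had 5.51, 5.44, 8.01 and 8.84, higher in both CAST lists by 1.45 times in males and 1.62 times in females before scaling. The 4 loci called in part were H2-Q2, which the annotation gives at 2 loci, and H2-T3 and H2-Bl. The first H2-Q2 locus was called in B6 alone at 2.22 and 6.70, and the second in the B6 female and CAST male lists at 2.84 and 2.24. H2-T3 was called in CAST alone at 3.09 and 2.64, and H2-Bl in all but the CAST female list at 3.82, 3.05 and 2.72. Unique 50-base words around these starts make up 86.5% and 84.1% (H2-Q2), 88.3% (H2-T3) and 92.2% (H2-Bl). Of the loci called in none, H2-Q6 and H2-Q7 have only 35.1% and 48.1% unique 50-base words around their starts, so a missing peak there is no measure of the mark, while the 5 H2-M loci have 95.9% or more.

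Of 14 other class II loci, 5 were called in all lists, 4 in some and 5 in none, again against 54.5%. Ciita, the class II transactivator, was called at 2.89, 3.35, 3.89 and 2.64, H2-DMa at 2.51 to 3.07 and H2-Ob at 2.79 to 3.80. Cd74, the invariant chain that guards the class II groove, was called in all but the CAST female list at 2.55, 1.91 and 2.07, the same lists as H2-Aa. Ctss, a protease that trims the invariant chain, was called in B6 alone at 2.04 and 2.22, and Ifi30, a lysosomal reductase, in the B6 female list alone at 1.59. The regulators Rfx5 and Rfxank, which are widely expressed, had 5.08 to 5.92 and 4.97 to 5.77. Rfxap, their partner, was called in CAST alone at 7.46 and 6.88, but in both B6 lists exactly 1 peak number is missing between its neighbouring peaks, so the B6 lists give no value there and no strain comparison can be made. No such gap lies beside the starts of the other class I and class II genes called in part, and marker starts were not checked for gaps.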

How the data were processed

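Liver H3K27ac ChIP-seq of 20 livers and 4 inputs was analysed from 4 peak lists. As the study describes it, the authors pooled the 5 livers of a group, kept uniquely mapped paired reads (Bowtie2; B6 on mm9, CAST on a genome made from mm9 with CAST variants, then converted to mm9), called peaks against input (MACS2), and removed artefact regions and peaks made of duplicate reads. Each deposited peak has a score (10 times the −log10 of its q-value), a fold enrichment (a ratio of the summit to its background), the −log10 of its p-value and q-value, and a summit position. All columns of the lists belong to a group (0 were unmapped). The lists hold no depth per library and no value per liver, so the only errors given are counting intervals.

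From fold enrichment (1 fragment added to both terms) and the Poisson p-value, summit pileups and backgrounds were solved; the pileups of all peaks came out whole within 0.05, and the solution was tested on simulated data. Peaks overlapping by at least 1 bp in any list were merged into regions. Pileup ratios were divided by the ratio of the lowest backgrounds; log2 ratios were centred on the median of all regions called in every list. Strains were called different at 1.5 times, in the same direction in both sexes. The 10 genes and the gene lists were chosen with earlier results of these data known. A further B cell marker of these lists is not reported here. Regions were named when they held a start, were strain-only or were among the 3 strongest of a gene's window, and other pathway genes when called in part or past 1.5 times; the further regions and genes named were chosen after their values were seen. Starts came from GENCODE vM1 and, for upstream sequence, the RefSeq promoter table (GRCm38.p6) located in mm9 by exact match. Uniqueness is the share of 50-base words that occur once in mm9, both strands. Alternatives were other windows, merging, bins, thresholds, scaling and measures. Python 3.11.15, numpy 2.4.6, pandas 2.3.3, scipy 1.17.1, numba 0.67.0 and matplotlib 3.10.9 were used.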

Additional observations from a re-analysis of the deposited data

Results flagged for a closer look

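Inside H2-Eb1 (chr17:34446181-34447224), the strain difference of the summit pileup ran in opposite directions in the sexes. With the median of all regions at 0, the log2 ratio of CAST to B6 was 0.43 in males and -0.51 in females. The difference between the sexes was not tested, since each list pools 5 livers.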

How the results depend on the processing

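Of 50 alternative values for the counts of the report, 34 stayed within 1.5 times the reported count and 16 did not. With gene bodies alone as windows, 11 regions remained to be counted, 8 of them called in all 4 lists (40.4% in the series), 0 B6-only (4.17%), 1 CAST-only (6.15%), 1 of 9 sex-only in B6 (34.9%) and 1 of 10 sex-only in CAST (35.5%). With 25 kb on each side there were 46 regions, of which 8 were CAST-only, and 8 of the 33 called in B6 were sex-only, with the same series shares. Merging peaks up to 500 bp apart left 0 of 18 sex-only regions in B6 (30.5% in the series). In 1 kb bins 0 of 29 were B6-only (5.67% of all bins) and 2 CAST-only (5.84%). The region downstream of Tap2 was the 1 region that differed between strains by fold enrichment averaged over width (0.767% of all regions), at a threshold lower than 1.5 times (5.11%) and without scaling (0.843%). By summit pileup over the lowest background, a measure chosen after seeing the data, it was the H2-D1 start that differed, 1 of 16 (4.16% of all regions). The direction of the ratios downstream of Tap2 and at the H2-D1 start stayed the same in every alternative run for them. Between fold enrichment and pileup, the centred log2 ratio of CAST to B6 turned in females at the region upstream of H2-D1 (-0.25 and 0.46) and at the one called in all lists between H2-Aa and H2-Eb1 (0.06 and -0.09), and in males at the Tap2 start (-0.09 and 0.07).

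No paired analysis was possible because each list pools the 5 livers of its group, and for the same reason leaving out livers was not possible. Fragments at weak peaks were few (41 to 57 at the summits called in a single list near the class II starts), so a call in 1 list and not in another rests on few fragments there. Peaks below the caller's limit are not in the lists, and a missing peak gives no value.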
